A study of Arabidopsis thaliana with 2 samples.

Results

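WRKY transcription factor genes were followed across RNA sequencing libraries from Arabidopsis thaliana leaf explants with and without induced NAC1, a transcription factor of the NAC family. The members are 60 loci of the WRKY family, fixed as a list of locus identifiers and looked up among the 33602 loci counted. In 57 of them at least 10 reads were counted in 1 or more libraries, and these are called measured here. The remaining members, WRKY35, WRKY64 and WRKY67, had at most 2 counts in either library.

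Both libraries come from first-pair rosette leaves, taken as explants from the same transgenic line in the Col-0 background at 12 days after sowing. The line carries pER8:3xFlag-NAC1, in which the pER8 vector switches on a Flag-tagged NAC1 copy when estradiol is supplied, so that the control carries the transgene as well. Explants were kept on B5 medium with estradiol dissolved in DMSO (the estradiol group) or with DMSO only (the control group), and the stated purpose was to find genes that NAC1 switches on. Each group has 1 library, so there is no replicate check, no test and no p-value, and each difference below is between these 2 libraries. An estradiol-treated line without the transgene was not analysed here, so effects of the chemical and of NAC1 cannot be told apart.

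WRKY proteins bind DNA through a domain with the heptapeptide WRKYGQK and a zinc finger, and the best known site is the W box. Group I proteins have a pair of such domains, group II proteins 1 domain with the same finger type, and group III proteins 1 domain with a different finger. In Arabidopsis leaves many WRKY genes respond quickly to wounding, pathogens, salicylate and senescence, and the factors activate or repress defence genes and each other. MAP kinases phosphorylate several of them, and proteins with a VQ motif bind some of them.

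Gene counts totalled 39799127 for the control and 48350705 for estradiol. NAC1 itself had 466 and 28380 counts, with transgene and native reads counted together. The library titles, DM and ER, do not spell out the treatment, so groups follow the treatment field and the culture protocol, which both give DM as the estradiol library, and NAC1 was higher in it. The leaf markers were abundant, RBCS1A with 109863 and 102063 counts, and all 5 had ratios below 1. Of them CAB3 and LHCB2.2, light-harvesting genes, were called lower by the rule given below, 3.96-fold and 4.83-fold. Both calls also held with the assumed variation described below, but similar gene copies make the counts of both genes and of RBCS1A uncertain. The leaf list summed to 7903 and 6056 CPM (counts scaled to the TMM-adjusted library size, per 1e6). Of 5 root markers EXPA7, RHD6, COBL9 and CASP1 had at most 6 counts in either library, and PYK10 had 1948 and 3915. Guard cell markers summed to 63.2 CPM in the control and 43.1 with estradiol, phloem markers to 243 and 210, and xylem markers to 41.96 and 43.97. The xylem genes went in different directions, with XCP1 2.40-fold higher (2.08 to 2.79) and XCP2 and IRX3 at ratios of 0.820 and 0.753. The part of these markers in the results below was not tested. In whole explants fewer cells of a type and less RNA per cell cannot be told apart.

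A gene was called higher or lower when its whole 95% counting interval for the estradiol-to-control ratio lay above 2 or below 0.5. By this rule 16 of 57 measured WRKY genes were higher with estradiol (28.1%, against 5.38% of all 20274 measured genes) and 5 were lower (8.77%, against 4.64% of all genes). The higher genes were WRKY25, WRKY26 and WRKY58 of group I, WRKY47 of group IIb, WRKY8, WRKY12, WRKY28, WRKY45, WRKY50, WRKY51 and WRKY75 of group IIc, and WRKY30, WRKY38, WRKY55, WRKY62 and WRKY63 of group III. The lower genes were WRKY40 of group IIa, WRKY11 of group IId, and WRKY22, WRKY27 and WRKY29 of group IIe. The other 36 had ratios between 0.382 and 2.77. The median log2 ratio of the 57 genes was 0.29, against 0.01 for all measured genes. A coefficient of variation of 0.2 between libraries was also allowed for on top of counting error (the assumed variation below). With it 11 of the 57 WRKY genes were higher and 0 lower, against 638 (3.15%) and 362 (1.79%) of the 20274 genes.

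The 5 genes WRKY12, WRKY13, WRKY14, WRKY62 and WRKY63 reached 10 counts in the estradiol library only, and none did so in the control only. A gene that passes in this way must have more counts with estradiol than in the control. Calls were therefore also counted over the 52 members with at least 10 counts in both libraries. Of these 13 were higher and 5 lower, or 25% and 9.62%, against 4.12% and 4.22% of 19202 genes with the same minimum. Their median log2 ratio was 0.11, against 0.29 over the 57. Under the assumed variation 8 of the 52 were higher and 0 lower, against 416 and 267 of the 19202 genes. Members with a mean of at least 100 counts gave 12 higher and 5 lower of 44, with a median log2 ratio of 0.09, and those below that mean gave 4 higher and 0 lower of 13. Over all genes the same division gave 4.60% higher and 3.95% lower above that mean, and 9.09% higher and 7.89% lower below it.

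**Figure D1:**
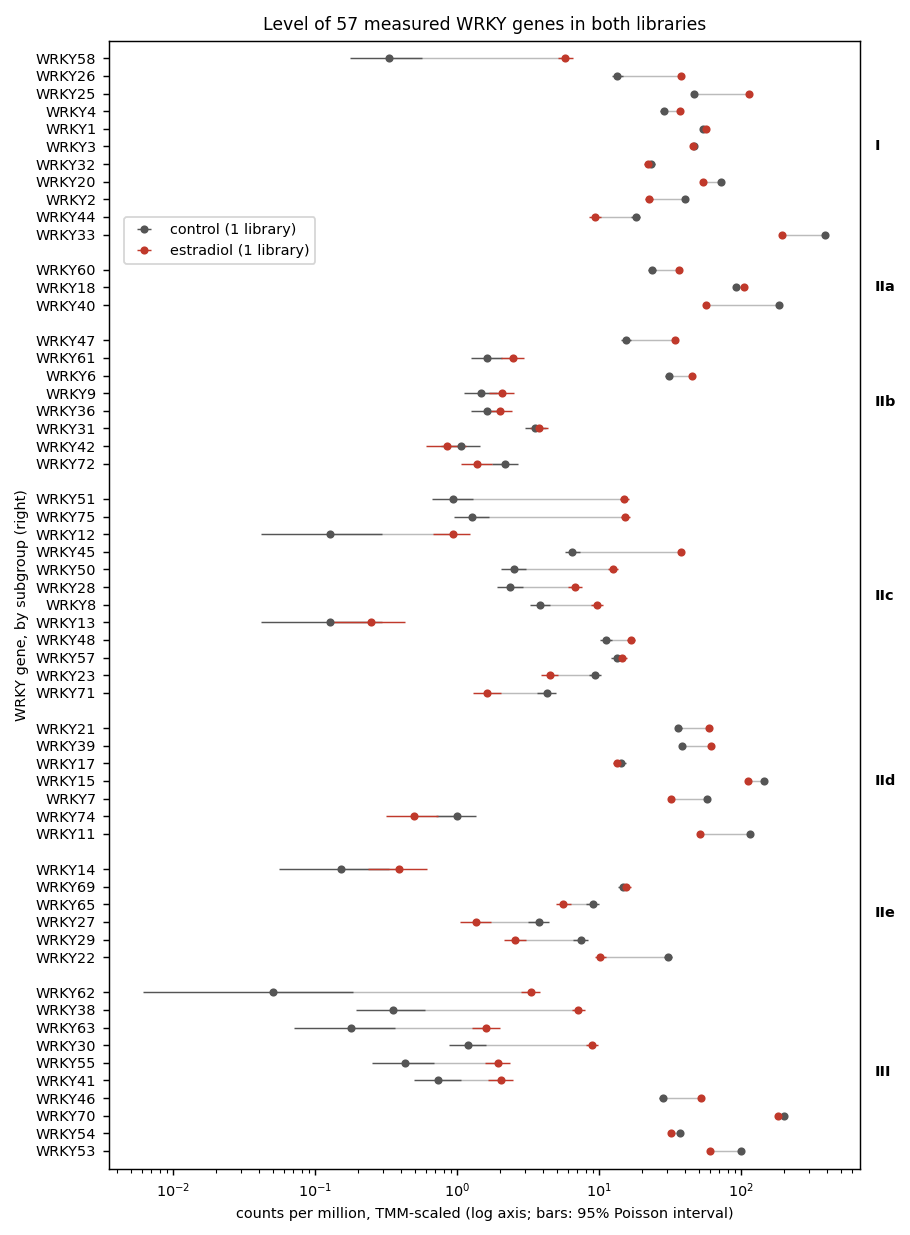
Level of each measured WRKY gene in CPM on a log axis, with a point and 95% Poisson interval for the control library and for the estradiol library, arranged by subgroup. The 3 highest ratios belong to genes with few control reads, WRKY62 and WRKY38 of group III and WRKY58 of group I, with WRKY62 at 0.0506 and 3.29 CPM, while WRKY33 was abundant in both libraries at 385 and 192 CPM.

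Although more WRKY genes were higher than lower, the summed level of the family was not. The 57 genes together took 1977 CPM without and 1734 CPM with estradiol. The 16 higher genes accounted for 95 CPM and 311 CPM of these sums, and the 5 lower genes for 341 CPM and 122 CPM. The 36 genes called neither accounted for 1541 CPM and 1300 CPM, with WRKY33 among them at 385 and 192 CPM. Of these 36 genes 18 had a log2 ratio above 0. The control sum of the lower genes came mostly from WRKY40 and WRKY11. The median level per transcript length of the lower genes was 22.9 RPKM (CPM per kilobase of transcript) in the control, against 1.28 RPKM for the higher genes, but the levels overlapped: WRKY27 and WRKY29 of the lower genes had 2.37 and 5.29 RPKM, and WRKY25 of the higher genes had 26 RPKM. With estradiol the medians were 7.65 RPKM for the lower and 6.93 RPKM for the higher genes. The calls rest on the estradiol-to-control ratio, so a higher call favours low control levels and a lower call high ones. The difference between the control medians is therefore partly built in. WRKY12, WRKY62 and WRKY63 of the higher genes also passed the minimum through the estradiol library alone.

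By length-adjusted level the control library was led by WRKY33, WRKY40, WRKY70, WRKY15 and WRKY11. WRKY33, required for camalexin synthesis and for resistance to necrotrophic fungi, had 190 RPKM in the control and 94.9 RPKM with estradiol. WRKY40 had 140 and 42.5 RPKM, and WRKY70 had 136 and 123 RPKM. WRKY15 had 113 and 86.2 RPKM, and WRKY11 had 66.1 and 29.7 RPKM. In the estradiol library the order was WRKY70, WRKY33, WRKY15, WRKY25 and WRKY18, with WRKY25 at 63.7 and WRKY18 at 60.2 RPKM. The control levels of WRKY40 and WRKY70 had overlapping counting intervals (137 to 143 and 133 to 139 RPKM), so their order there is not settled. The fifth place is not settled either, since WRKY53 had 65.8 RPKM (63.7 to 67.9) beside WRKY11 with an interval of 64.2 to 68.1 RPKM. Among the higher genes WRKY45 moved from rank 33 to rank 13 of 57, WRKY75 from 40 to 20 and WRKY51 from 43 to 24.

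Bases were read from the reference for the features that set the groups apart. In the annotated proteins the WRKYGQK heptapeptide was present 2 times in each of the 11 group I members and 1 time in 47 others, and the remaining 2, WRKY50 and WRKY51, had a variant of it. The coding bases of the heptapeptide are shown for these 2 genes, for WRKY75 of the same subgroup, and for WRKY33, the most abundant member in the control, with the sixth codon in capitals, the codon at which the variant differs (RefSeq, TAIR10.1, 5′ to 3′ on the coding strand).

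WRKY33, first domain, chr2:16109358-16109378, plus strand: tggagaaagtacggaCAAaaa

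WRKY33, second domain, chr2:16109982-16110002, plus strand: tggagaaaatacggcCAGaaa

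WRKY75, chr5:4150786-4150806, minus strand: tggaggaaatatggcCAAaag

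WRKY50, chr5:9147579-9147599, minus strand: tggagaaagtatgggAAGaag

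WRKY51, chr5:25908864-25908884, plus strand: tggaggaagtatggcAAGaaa

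The group III pattern of the zinc finger was found in 12 members, all of them assigned to group III, and the pattern of groups I and II in 47. WRKY36 matched neither spacing. WRKY45, which some sources place in group I, has 1 heptapeptide and is described with group IIc here.

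Group III, whose Arabidopsis members are mostly known from salicylate-linked defence and senescence, had 5 of 10 measured genes higher and 0 lower, with a median log2 ratio of 1.79. Because WRKY62 and WRKY63 passed the minimum through the estradiol library alone, the count over genes with 10 counts in both libraries was 3 of 8, with a median of 1.18. All 5 stayed higher under the assumed variation. WRKY62 (AT5G01900) had 2 control counts and 160 with estradiol, a ratio of 64.9 (95% counting interval 17.7 to 541). WRKY38 (AT5G22570) had 14 and 346 counts, 20.1-fold higher (11.8 to 37.1). WRKY38 and WRKY62 are close relatives that act redundantly as negative regulators of basal defence, and both were nearly silent in the control. WRKY30 (AT5G24110), a gene induced by oxidative stress and pathogen signals, had 47 and 431 counts and was 7.44-fold higher (5.50 to 10.3). WRKY63 (AT1G66600), known as ABO3 from abscisic acid and drought responses, had 7 and 78 counts and was 9.04-fold higher (4.19 to 23.2). Its neighbours in the same chromosomal cluster, WRKY64 and WRKY67, had 0 counts in the control and 2 and 1 with estradiol. WRKY55 (AT2G40740), linked to leaf senescence and defence, had 17 and 94 counts and was 4.49-fold higher (2.66 to 8.03).

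The other measured group III genes were the abundant ones, with the exception of WRKY41. WRKY70 (AT3G56400) and WRKY54, close relatives that limit salicylate accumulation and delay senescence, had log2 ratios of -0.15 and -0.20. WRKY54 lies beside WRKY55 on chromosome 2, and these neighbours had ratios of 0.869 and 4.49. WRKY53 (AT4G23810), a regulator of leaf senescence, had 3936 and 2920 counts and a ratio of 0.602 (0.574 to 0.632). Its relative WRKY46 had 1102 and 2548 counts and a ratio of 1.88 (1.75 to 2.02), just inside the threshold of 2. WRKY41, with 29 and 99 counts, had a ratio of 2.77 (1.82 to 4.35) and was not called because its interval reaches below 2. In the set of relatives WRKY30, WRKY41, WRKY46 and WRKY53 the ratios therefore ran from 0.602 to 7.44.

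**Figure D2:**
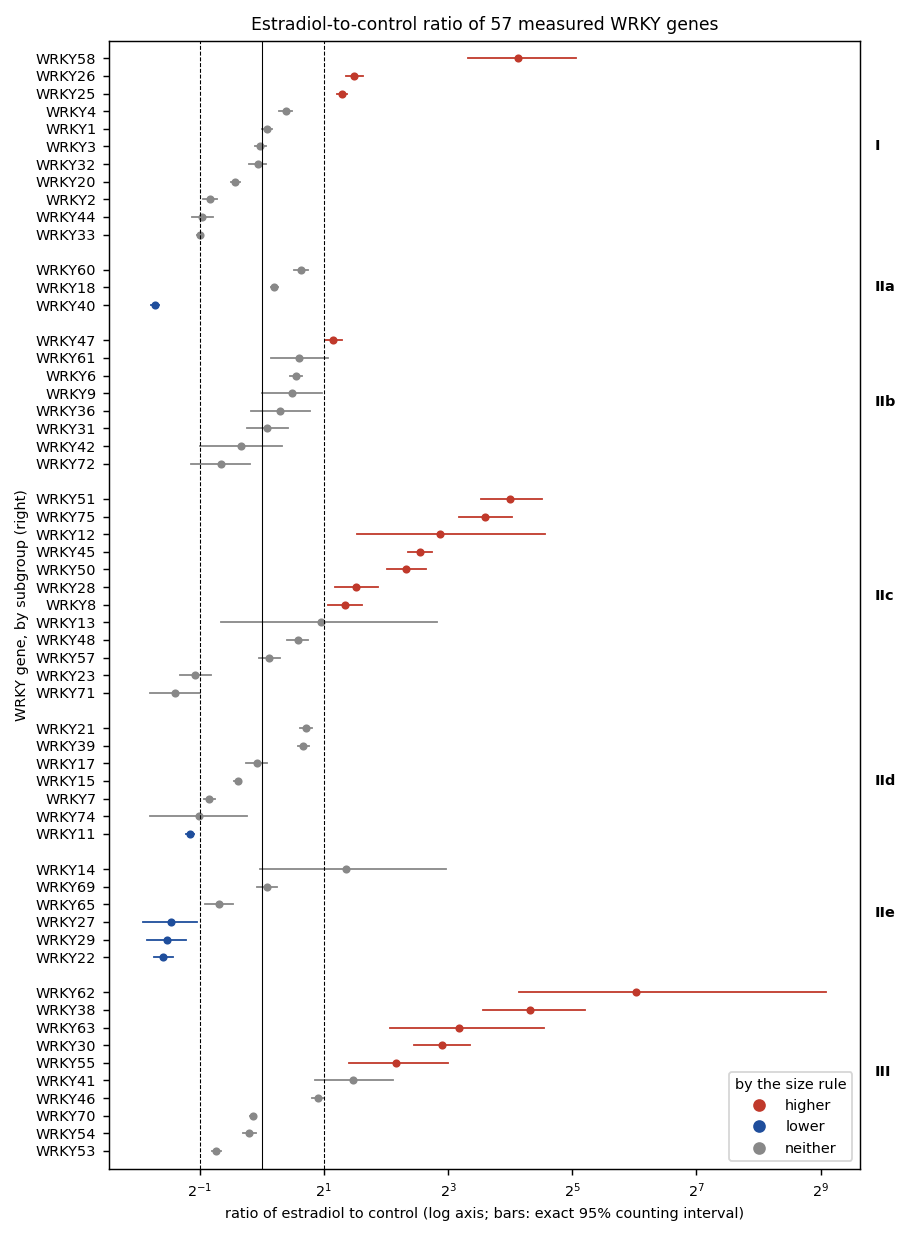
Ratio of the estradiol to the control library for each measured WRKY gene on a log axis, with its exact 95% counting interval and dashed lines at ratios of 0.5 and 2, arranged by subgroup and coloured by call. Higher calls include 7 of 12 genes of group IIc and 5 of 10 of group III, and 3 of 6 genes of group IIe lie wholly below 0.5.

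Group IIc had 7 of 12 genes higher and 0 lower, with a median log2 ratio of 1.42. WRKY51 (AT5G64810) had 37 and 731 counts and was 16.0-fold higher (11.5 to 22.96), and its relative WRKY50 (AT5G26170) had 99 and 610 counts and was 5.0-fold higher (4.04 to 6.25). Both are known for repressing jasmonate responses when salicylate signalling is active, and they are the pair with the variant heptapeptide printed above. WRKY75 (AT5G13080), known from phosphate starvation, root hair growth and leaf senescence, had 50 and 742 counts and was 12.0-fold higher (9.04 to 16.4). Its relative WRKY45 (AT3G01970), which promotes phosphate uptake and senescence, had 255 and 1830 counts and was 5.82-fold higher (5.11 to 6.67). WRKY45 was the one gene among the 11 that stayed higher under the assumed variation to have over 100 control counts.

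Among the remaining group IIc genes, WRKY28 (AT4G18170), an activator of the salicylate synthesis gene ICS1, had 93 and 329 counts and was 2.87-fold higher (2.27 to 3.65). WRKY8 (AT5G46350), linked to defence against viruses and fungi, had 151 and 469 counts and was 2.52-fold higher (2.09 to 3.05). Neither of these 2 calls held under the assumed variation. Their relative WRKY71, a gene of shoot branching, had 168 and 79 counts with a ratio of 0.382 (0.288 to 0.501), so the relatives WRKY8, WRKY28 and WRKY71 lay on both sides of 1. WRKY12 (AT2G44745), which restrains secondary wall formation in pith, had 5 and 45 counts and was 7.30-fold higher (2.91 to 23.6). Its relative WRKY13 had 5 and 12 counts, too few for a call. WRKY23, known from auxin-dependent development, had 369 and 217 counts and a ratio of 0.477 (0.402 to 0.566). WRKY48 and WRKY57 had log2 ratios of 0.58 and 0.13.

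Group I had 3 of 11 genes higher and 0 lower, with a median log2 ratio of -0.02. WRKY58 (AT3G01080), described as a negative regulator of systemic acquired resistance, had 13 and 280 counts and was 17.5-fold higher (10.06 to 33.2). WRKY25 (AT2G30250) and WRKY26 (AT5G07100), which act in heat tolerance together with WRKY33 (AT2G38470), were 2.45-fold (2.32 to 2.59) and 2.81-fold higher (2.55 to 3.10). WRKY25 had 1825 and 5513 counts, and WRKY26 had 529 and 1832. Neither call held under the assumed variation, while that of WRKY58 did. WRKY33 went the other way, with 15213 and 9369 counts and a ratio of 0.4998 (0.487 to 0.513) that straddled the threshold of 0.5. WRKY44, better known as TTG2 from trichome and seed coat development, had a ratio of 0.516 (0.457 to 0.581), and WRKY2 one of 0.561 (0.518 to 0.606). The close relatives WRKY3 and WRKY4 had ratios of 0.983 and 1.31, and WRKY1, WRKY20 and WRKY32 had ratios of 1.06, 0.747 and 0.955.

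The lower genes all belonged to group II. WRKY40 (AT1G80840), which with WRKY18 and WRKY60 forms group IIa, had 7326 and 2744 counts and was 3.29-fold lower (3.15 to 3.44). The 3 factors can pair with each other and restrain basal defence and abscisic acid responses. WRKY18 had 3594 and 5105 counts and a ratio of 1.15 (1.10 to 1.20), and WRKY60 had 931 and 1783 counts and a ratio of 1.55 (1.43 to 1.68), so their ratios ran from 0.304 to 1.55. Per length, WRKY40 was above WRKY18 in the control (140 against 52.3 RPKM) and below it with estradiol (42.5 against 60.2 RPKM).

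In group IIe 3 of 6 measured genes were lower and 0 higher, with a median log2 ratio of -1.07, which was -1.46 with a minimum of 50 counts and -0.69 with no minimum. WRKY22 (AT4G01250) had 1202 and 494 counts and was 3.00-fold lower (2.70 to 3.34). WRKY29 (AT4G23550) had 291 and 124 counts and was 2.89-fold lower (2.34 to 3.60). These relatives are known as outputs of the MAP kinase cascade that responds to bacterial flagellin. WRKY27 (AT5G52830), which affects symptoms of bacterial wilt, had 148 and 66 counts and was 2.76-fold lower (2.05 to 3.75). WRKY65 and WRKY69 had log2 ratios of -0.69 and 0.08, and WRKY14 had 6 and 19 counts.

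Group IId, whose proteins bind calmodulin, had 1 of 7 genes lower and 0 higher, with a median log2 ratio of -0.39. WRKY11 (AT4G31550), a negative regulator of basal resistance, had 4517 and 2503 counts and was 2.22-fold lower (2.12 to 2.34). Its partner in that role, WRKY17, had 560 and 652 counts and a ratio of 0.945 (0.843 to 1.06). WRKY21 and WRKY39 had ratios of 1.64 and 1.59, WRKY15 and WRKY7 of 0.766 and 0.558, and WRKY74 had 39 and 24 counts. No lower call among the measured members held under the assumed variation.

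Group IIb had 1 of 8 genes higher and 0 lower, with a median log2 ratio of 0.39. WRKY47 (AT4G01720) had 610 and 1670 counts and was 2.22-fold higher (2.02 to 2.44), close to the threshold. Its call did not hold under the assumed variation. WRKY6, known from senescence and phosphate supply, had 1217 and 2197 counts and a ratio of 1.47 (1.37 to 1.57). Its relatives WRKY31 and WRKY42 had ratios of 1.07 and 0.792. The rest of the group, WRKY9, WRKY36, WRKY61 and WRKY72, had between 58 and 120 counts in either library and ratios from 0.632 to 1.52.

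Across the main groups, the share of measured genes called higher was 27.3% in group I, 22.2% in group II and 50% in group III. Over all measured genes it was 5.38%. With at least 10 counts in both libraries the group shares were 27.3%, 21.2% and 37.5%, over 11, 33 and 8 genes, against 4.12% of all genes. Group IIc then had 6 of 10 higher. Lower calls made up 13.9% of group II and 0 of the other groups, against 4.64% of all measured genes. For the 11 and 10 measured genes of groups I and III, 0 lower is near that share. Within group II, 7 of 12 genes were higher in IIc and 3 of 6 were lower in IIe. Sets this small give more extreme shares than larger ones. The same holds for groups I and III, with 11 and 10 measured genes against 12 in IIc. The spread of shares is therefore not compared between these sets. Under the assumed variation 5 genes of IIc were higher and 0 of IIe lower. The summed level of group IIc went from 55.6 to 135 CPM, that of group IIe from 65.2 to 35.5 CPM, and that of group III from 368 to 350 CPM. No test of a difference between groups was made, since members of a family are not replicates.

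**Figure D3:**
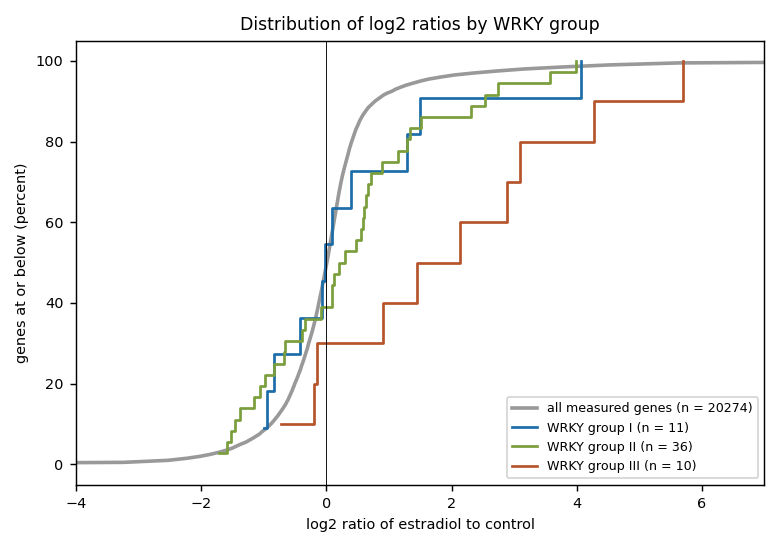
Cumulative percentage of genes at or below each log2 ratio of estradiol to control, for all 20274 measured genes and for the measured WRKY genes of groups I (11), II (36) and III (10). The group III curve lies to the right, with a median of 1.79 (1.18 over the 8 genes with 10 counts in both libraries), while the curve of all genes is steep around its median of 0.01.

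The W box was searched as TTGACC or TTGACT on both strands, from 250 bases before to 50 bases after the annotated start of each gene. Of the 60 members 24 (40%) had at least 1, against 32.4% of 27444 protein-coding genes, and 11 (18.3%) had at least 2, against 7.70%. A W box was present in 9 of 16 higher genes, 2 of 5 lower genes and 11 of 36 called neither. By group it was present in 5 of 11 windows of group I, 12 of 37 of group II and 7 of 12 of group III. These counts describe letters in the windows and show no binding.

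Upstream sequences are printed for the higher relatives WRKY62 and WRKY38, for WRKY30 with 3 W boxes, for WRKY75, for the lower gene WRKY29 and for the abundant WRKY33. Each is the stretch of 250 bases before the annotated start, 5′ to 3′ on the strand of the gene, with W boxes in capitals (RefSeq, TAIR10.1).

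WRKY62, chr5:352096-352345, minus strand: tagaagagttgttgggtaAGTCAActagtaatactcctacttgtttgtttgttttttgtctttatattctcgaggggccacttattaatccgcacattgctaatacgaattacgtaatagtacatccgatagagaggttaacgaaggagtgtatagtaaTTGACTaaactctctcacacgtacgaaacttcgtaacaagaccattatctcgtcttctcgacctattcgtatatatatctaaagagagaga

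WRKY38, chr5:7496991-7497240, minus strand: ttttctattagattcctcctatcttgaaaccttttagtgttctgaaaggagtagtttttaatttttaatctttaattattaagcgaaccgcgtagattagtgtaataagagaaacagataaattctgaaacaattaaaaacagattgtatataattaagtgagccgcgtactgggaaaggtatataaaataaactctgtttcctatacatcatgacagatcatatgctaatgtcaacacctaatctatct

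WRKY30, chr5:8154711-8154960, minus strand: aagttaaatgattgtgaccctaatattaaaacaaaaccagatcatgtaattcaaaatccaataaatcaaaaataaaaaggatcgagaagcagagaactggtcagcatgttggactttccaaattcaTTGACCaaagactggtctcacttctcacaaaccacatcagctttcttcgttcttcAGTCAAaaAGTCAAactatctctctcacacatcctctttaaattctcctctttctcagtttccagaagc

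WRKY75, chr5:4151202-4151451, minus strand: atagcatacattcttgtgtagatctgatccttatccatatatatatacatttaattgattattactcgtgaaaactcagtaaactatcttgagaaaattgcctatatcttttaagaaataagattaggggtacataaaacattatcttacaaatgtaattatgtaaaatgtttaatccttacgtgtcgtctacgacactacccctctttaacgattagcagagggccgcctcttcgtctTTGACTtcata

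WRKY29, chr4:12291382-12291631, plus strand: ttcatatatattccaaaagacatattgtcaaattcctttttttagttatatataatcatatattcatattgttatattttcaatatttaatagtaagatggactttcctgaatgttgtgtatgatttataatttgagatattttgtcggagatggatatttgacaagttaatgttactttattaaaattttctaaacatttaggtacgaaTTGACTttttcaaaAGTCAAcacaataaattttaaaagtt

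WRKY33, chr2:16107985-16108234, plus strand: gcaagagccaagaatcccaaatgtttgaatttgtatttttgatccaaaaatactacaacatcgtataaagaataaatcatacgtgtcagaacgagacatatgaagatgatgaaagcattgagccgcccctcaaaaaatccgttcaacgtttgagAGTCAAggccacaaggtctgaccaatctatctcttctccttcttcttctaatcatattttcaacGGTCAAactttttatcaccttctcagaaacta

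WRKY62 has 2 W boxes in this stretch and WRKY38 has 0, although both were among the genes with the highest ratios. WRKY29 and WRKY33 each have 2, and their ratios were 0.346 and 0.4998.

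Around the WRKY factors, none of 10 genes of the MAP kinase cascade was called, which with 5.38% of all genes higher and 4.64% lower is near the background for so few genes. Their log2 ratios ran from -0.99 to 0.84, with a median of 0.33. MPK3 and MPK6, kinases that phosphorylate WRKY33, had ratios of 0.806 (0.787 to 0.826) and 1.38 (1.31 to 1.46). MKK1, MKK2 and MPK11 had ratios of 1.79, 1.61 and 1.72, and MKK9 had 0.504 (0.478 to 0.530).

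Genes for VQ proteins, taken as those with a VQ motif in the reference product together with the named WRKY partners, had 3 of 25 measured members higher (12%, against 5.38% of all genes) and 2 lower (8%, against 4.64%), with a median log2 ratio of 0.07. Among the named WRKY partners, MKS1, SIB1, SIB2, JAV1, IKU1 and VQ12 had ratios of 0.858, 0.868, 1.70, 1.04, 1.21 and 0.553, and none was called. VQ29 had 0 and 5 counts. MKS1 links MPK4 to WRKY33, and SIB1 and SIB2 bind WRKY33. AT1G68450, which had 5 control counts and passed the minimum through the estradiol library alone, was 16.4-fold higher (6.80 to 51.6). AT4G20000 had 50 and 317 counts and was 5.14-fold higher (3.81 to 7.08), and AT5G08480 was 3.07-fold higher (2.25 to 4.26). AT3G56880 had 7969 and 3101 counts and was 3.17-fold lower (3.04 to 3.30), and AT1G21326 was 3.37-fold lower (2.48 to 4.65). Under the assumed variation 2 of the 25 genes were higher, AT1G68450 and AT4G20000, and 0 lower, against 3.15% and 1.79% of all genes. Among VQ genes called neither, AT3G18360, AT1G35830 and AT5G65170, at 4, 13 and 35 control counts, had ratios of 2.43, 1.31 and 2.55. AT4G39720, AT3G58000 and AT3G15300, at 39, 50 and 90 control counts, had ratios of 0.874, 0.763 and 0.685. AT4G15120, also at 39, had a ratio of 1.31. At 510 and 1243 control counts, AT1G78410 and AT5G46780 had ratios of 1.94 and 0.791.

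Of 20 genes listed as targets of WRKY factors in Arabidopsis 17 were measured. Among these 8 were higher (47.1%, against 5.38% of all genes) and 4 lower (23.5%, against 4.64%), with a median log2 ratio of 1.34. The higher genes CYP82C2 and JAZ8, with 6 and 4 control counts, passed the minimum through the estradiol library alone. The list was chosen with earlier results of these data known, so these shares are no test. PAD3, which catalyses the last step of camalexin synthesis and is a direct target of WRKY33, had 602 and 10481 counts and was 14.1-fold higher (13.01 to 15.4). CYP71A13 and CYP82C2, further WRKY33 targets of indolic defence chemistry, were higher as well, with 26 and 2769 counts and with 6 and 2469 counts, while WRKY33 had a ratio of 0.4998. Similar gene copies make the counts of both uncertain. ACS6, another gene regulated by WRKY33 and an enzyme of ethylene synthesis, had 6800 and 3000 counts and was 2.79-fold lower (2.68 to 2.92). ICS1, the salicylate synthesis gene activated by WRKY28, had 461 and 2875 counts and was 5.06-fold higher (4.59 to 5.60). PR1, a salicylate marker whose promoter WRKY50 can bind, had 240 and 20861 counts. EDS1 and SARD1, defence regulators, were 2.53-fold and 2.60-fold higher. Neither of these calls held under the assumed variation, and the lower call of ACS6 did not hold either. With it 6 of the 17 measured targets were higher and 2 lower, against 3.15% and 1.79% of all genes.

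PHT1;1, a phosphate transporter gene that WRKY45 activates, had 1059 and 225 counts and was 5.80-fold lower (5.02 to 6.73), in the library in which WRKY45 and WRKY75 were higher. Near-identical transporter copies make its counts uncertain. JAZ8 and RRTF1, bound by WRKY40, had 4 and 34 counts and 139 and 49 counts, the first higher and the second lower. Under the assumed variation the call of JAZ8 held and that of RRTF1 did not. FRK1, an output of the flagellin cascade with WRKY22 and WRKY29, had 457 and 878 counts and a ratio of 1.56 (1.39 to 1.75). NCED3 was the remaining lower gene, and ACS2, ABI5, PHO1 and GL2 were called neither. ABI4, TT12 and NST2 had at most 2 counts. Targets were chosen from published work on single genes, and no statement on regulation in these libraries follows from the counts.

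**Figure D4:**
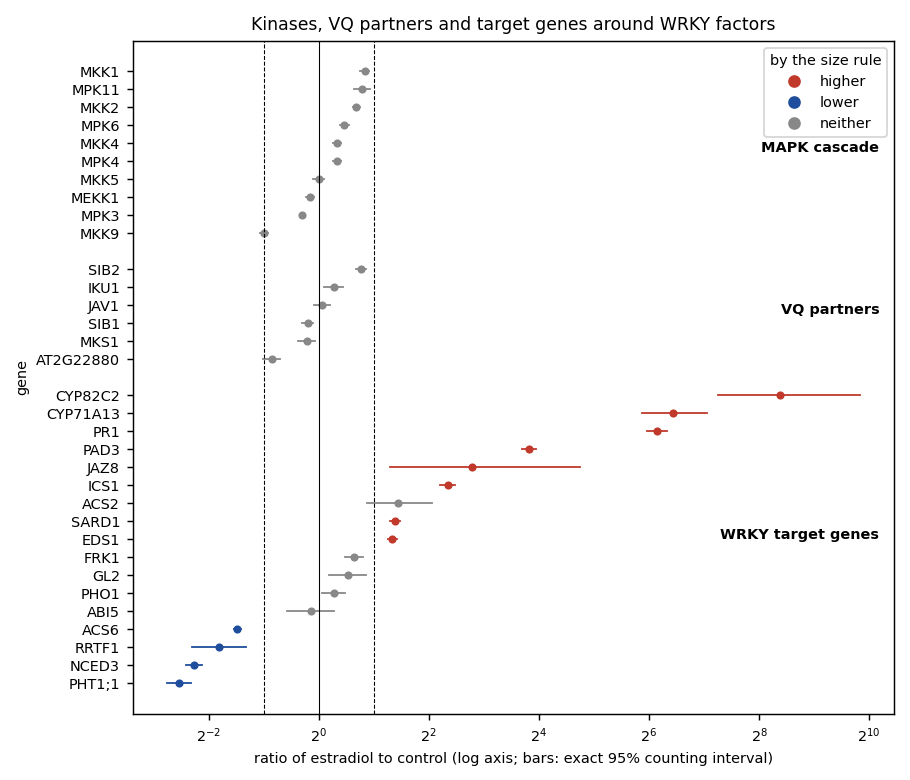
Ratio of the estradiol to the control library for measured genes of the MAP kinase cascade, VQ partners and WRKY targets on a log axis, with exact 95% counting intervals and dashed lines at ratios of 0.5 and 2. The kinase and VQ points lie within the dashed lines, while the targets run from 0.172 for PHT1;1 to 334 for CYP82C2.

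A further 15 genes have WRKY in their reference symbol or product and are not among the 60 members. Of these 3 were measured: WRKY19 with 1311 and 2307 counts, WRKY49 with 89 and 19, and WRKY66 with 0 and 13. WRKY49 was 5.77-fold lower (3.49 to 10.04), also under the assumed variation. WRKY66 was 3.52-fold higher when its control was set to a floor of 3 counts. The counting interval of its ratio began at 2.47, and its higher call did not hold under the assumed variation. Without a known strand setting, counts of genes that overlap another annotated gene are uncertain, which applies to 11 of the 57 measured members, among them WRKY33, WRKY53 and the called genes WRKY40 and WRKY29. WRKY40 also resembles AT3G32090, which had 0 counts in both libraries.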

How the data were processed

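RNA sequencing libraries of leaf explants, 1 with estradiol and 1 control, were compared. The authors deposited raw counts per locus, and HTSeq, FastQC, DESeq and the TAIR10 build are named per the submitters' processing notes, while the sources used here do not give the aligner or strand setting. HTSeq's summary lines stayed out of library sizes: ambiguous reads were 2.05% (control) and 1.91% (estradiol), and reads outside features 0.742% and 0.693%. Library sizes were scaled with TMM (edgeR 4.0.16, R 4.3.3), with factors of 0.993 and 1.01. Ratios have exact 95% intervals (Clopper-Pearson, conditional on both counts) and log2 ratios a prior count of 0.5. Intervals cover counting error only (without molecular identifiers, reads are not independent molecules) and with 1 library a group no test was possible. The size rule was tested on simulated data.

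Levels per kilobase use the longest annotated transcript. Names, transcripts and bases come from RefSeq's TAIR10.1, whose nuclear chromosomes carry the TAIR10 sequence, and 32835 of 33602 loci and all 60 members matched. Since no protein table was used, proteins were translated from the annotated coding bases. Similar transcripts share at least 90% identity over 100 bases (BLAST 2.17.0). Members, groups and pathway lists were chosen with earlier results of these data known. The rule for named genes took every called member, the 5 with the highest level per length, the close relatives, and up to 6 genes of each pathway list by the interval bound nearest to 1. Further genes, such as WRKY19, WRKY49 and WRKY66, are named to spell out small counts, a choice made after seeing their values. Alternatives covered the scaling, count minimum, threshold, interval and prior count, and a count minimum in both libraries was added after seeing the data.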

Additional observations from a re-analysis of the deposited data

How the results depend on the processing

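No paired analysis was possible because each group has 1 library. Scaling by DESeq2 1.42.0 size factors or by total counts, and a prior count of 2, changed no call among the 57 measured WRKY genes, and the median log2 ratio of all genes stayed within 0.03 of 0 under every alternative. A minimum of 10 counts in both libraries, added after seeing the data, left 3 genes of group III higher and moved the group IIe median to -1.46. With a threshold of 1.5-fold, 19 of the 57 WRKY genes were higher (3 of group I, 9 of group II and 7 of group III) and 12 lower (3, 8 and 1). Over all genes 1809 were higher (8.92%) and 2009 lower (9.91%). With a threshold of 4-fold, 9 of the 57 were higher (1 of group I and 4 of group II among them) and 0 lower, so that 0 of group II were lower. Over all genes 468 were higher (2.31%) and 161 lower (0.794%). With the assumed variation, 638 genes were higher (3.15%) and 362 lower (1.79%) over all genes. Among WRKY genes 0 were lower (group II, 0), and 1 gene of group I and 5 of group II were higher. A 99% interval lost the calls of WRKY8, WRKY27 and WRKY47. Replicate variation cannot be estimated from these libraries, so calls near 2-fold are the least secure, and members under 50 counts have ratios with wide intervals.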
